A study of Mus musculus with 6 samples.

Results

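The enzymes that write, copy, erase and protect DNA methylation were followed in the RNA of mouse germinal vesicle (GV) oocytes. The 10 genes were taken by symbol from the 17577 genes listed in each deposited table. They were the DNA methyltransferase genes Dnmt1, Dnmt3a and Dnmt3b, the cofactor genes Dnmt3l and Uhrf1, the TET dioxygenase genes Tet1, Tet2 and Tet3, and the protector genes Dppa3 and Zfp57. All 10 were found in all 6 tables.

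The study compared 3 libraries of Bnc1tr/tr oocytes with 3 libraries of wild-type (WT) oocytes, to describe the transcriptome of oocytes that lack intact basonuclin 1, a zinc finger protein of germ cells and epithelia. The Bnc1tr/tr mice were homozygous for a frameshift allele in every cell of the animal, made by a small deletion that brings an early stop codon. All donors were C57BL/6 J females aged 12 weeks, and the study's methods describe follicle puncture after pregnant mare serum gonadotropin, the lysis of a single oocyte per reaction and Smart-seq2 amplification of polyadenylated RNA. Littermates were compared and the libraries of a group were described as biological replicates, without saying which mice or litters they came from, so the p-values measure the spread between these libraries.

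DNA methylation is placed on cytosines of CpG dinucleotides. In the growing oocyte, which does not divide, DNMT3A with its catalytically inactive partner DNMT3L lays down the maternal pattern, including the marks of imprinted genes. UHRF1 recognises half-copied sites behind the replication fork and brings in DNMT1, which copies the pattern. TET enzymes oxidise methylated cytosine, and TET3 is known as the TET enzyme that the egg supplies to the zygote. DPPA3, also called STELLA, shields the maternal genome from that oxidation and keeps UHRF1 out of the oocyte nucleus, while ZFP57 binds methylated imprint control regions and brings in the corepressor TRIM28. The libraries measured RNA, and DNA methylation itself was not measured.

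Values are FPKM (fragments scaled by transcript length in kilobases and by mapped fragments in M, or mega), a scale that is relative to all RNA of the library, so that less RNA of a gene per oocyte and more RNA of other genes cannot be told apart. A gene was called higher or lower at a limma adjusted p under 0.05 together with an absolute log2 fold change over 0.5 on log2(FPKM + 1), always as Bnc1tr/tr over WT. Of the 10560 genes tested, 31.8% were called, with 24.1% of the tested genes higher in Bnc1tr/tr and 7.68% lower. Over all of them the median change was 0.15 on the log2 scale.

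Of the 10 genes, 2 were called higher, 0 lower and 8 neither. The genes called higher were Tet1 and Tet2, which rose from a low level in WT oocytes. The third TET gene, Tet3, and the methyltransferase, cofactor and protector genes differed by less than the test could call, with log2 fold changes between -0.33 and 0.34 and no unadjusted p below 0.0951. The groups had no overlap for 2 of the 10 genes, against 46.8% of the tested genes.

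Promoter windows of the TET genes at RefSeq starts are shown because Tet1 and Tet2 moved together while Tet3 was not called. Gene-level values do not resolve which start the oocytes used, and the Tet2 and Tet3 windows lie inside the bounds of their genes. Each window runs 5′ to 3′ on the gene's strand from 250 bases before the RefSeq transcription start to 50 bases after it, build GRCm38.p6, with CpG dinucleotides in capitals. These 3 windows lie at chr10:62887275-62887574, chr3:133544341-133544640 and chr6:83441629-83441928, all on the minus strand.
Tet1: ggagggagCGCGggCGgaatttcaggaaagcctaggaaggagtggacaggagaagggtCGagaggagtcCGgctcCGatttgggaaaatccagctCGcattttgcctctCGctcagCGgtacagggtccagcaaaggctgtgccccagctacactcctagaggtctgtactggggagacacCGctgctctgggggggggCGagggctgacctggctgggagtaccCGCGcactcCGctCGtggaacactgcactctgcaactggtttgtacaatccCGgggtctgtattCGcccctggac
Tet2: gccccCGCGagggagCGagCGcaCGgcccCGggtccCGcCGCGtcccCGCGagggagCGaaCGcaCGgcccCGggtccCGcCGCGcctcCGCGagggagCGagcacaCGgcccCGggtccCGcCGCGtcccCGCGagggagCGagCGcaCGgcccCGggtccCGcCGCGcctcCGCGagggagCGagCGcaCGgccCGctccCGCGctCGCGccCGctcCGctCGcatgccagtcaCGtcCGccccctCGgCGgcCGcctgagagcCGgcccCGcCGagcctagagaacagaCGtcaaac
Tet3: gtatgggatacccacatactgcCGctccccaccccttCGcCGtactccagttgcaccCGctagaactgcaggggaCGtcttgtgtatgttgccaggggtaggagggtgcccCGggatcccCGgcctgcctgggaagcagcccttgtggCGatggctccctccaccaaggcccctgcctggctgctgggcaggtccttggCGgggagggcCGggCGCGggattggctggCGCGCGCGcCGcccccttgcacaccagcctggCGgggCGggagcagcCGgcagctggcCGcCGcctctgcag
Windows of this length from 27025 genes (32851 windows) held a median of 7 CpG dinucleotides. The Tet1 window held 17, a number reached by 31.4% of the windows, and the Tet3 window held 22, reached by 23.1%. The Tet2 window held 57, which only 0.2% of the windows reached, and it repeated itself, with 12-base words present up to 5 times, whereas no 12-base word occurred again in the Tet1 or Tet3 window. A search of 6 short motifs on both strands found the GC box GGGCGG in all 3 windows, a word found in 35.7% of the windows overall. The CCAAT box, written CCAAT, was found in the Tet3 window only, and in 37.4% of the windows overall. The TATA box TATAAA, the E-box CACGTG, the TEAD word GGAATG and the NOBOX word TAATTG were in none of the 3, against 13.6%, 7.2%, 14.7% and 8.0% of the windows. No word contains another, although CCAAT and the NOBOX word can share letters, and a match is a description of the letters only.

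Tet1 (NCBI Gene 52463, chr10:62804570-62887469, minus strand) encodes a CXXC-domain dioxygenase known from embryonic stem cells and primordial germ cells. Its level was 18.3, 18.2 and 17.8 FPKM in the Bnc1tr/tr libraries and 1.83, 1.36 and 1.22 FPKM in the WT libraries. Every Bnc1tr/tr library was above every WT library, and the 3 Bnc1tr/tr values lay within 1 FPKM of each other. The means were 18.1 ± 0.296 and 1.47 ± 0.320 FPKM (SD, n = 3 each), a 12.3-fold ratio. The log2 fold change was 2.96 (SE 0.16, 95% interval 2.59 to 3.33, limma adjusted p = 4.37e-06), which lay 2.81 above the median of all tested genes and ranked 148 from the highest of 10560. Among all listed genes, Tet1 stood at the percentile 76.8 of the Bnc1tr/tr means and 48.9 of the WT means.

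Tet2 (NCBI Gene 214133, chr3:133463677-133545136, minus strand) encodes the TET enzyme without a CXXC domain, known from blood cells. The Bnc1tr/tr libraries held 4.49, 4.81 and 2.82 FPKM and the WT libraries 0.22, 0.32 and 0.06 FPKM. The lowest Bnc1tr/tr value was above the highest WT value, and every WT value was under 1 FPKM. Mean levels were 4.04 ± 1.07 and 0.200 ± 0.131 FPKM (SD, n = 3 each), a 20.2-fold ratio. The log2 fold change of 2.05 (SE 0.20, 95% interval 1.59 to 2.52, limma adjusted p = 0.000115) understates this ratio because 1 FPKM was added before the logarithm, and with 0.1 FPKM added it was 3.86. The estimate lay 1.91 above the median of all tested genes.

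Tet2 entered the test only through its Bnc1tr/tr level, since its WT mean was under 1 FPKM. There were 960 such genes among those tested, and 753 of them (78.4%) were called higher. Tested among all listed genes without the filter, Tet2 had a limma adjusted p of 0.00167. At the estimated depth of each library, the Tet2 values correspond to about 540, 755 and 445 fragments on the longest annotated transcript in Bnc1tr/tr and to about 30, 47 and 12 in WT, and 3 fragments would give 0.0153 to 0.0249 FPKM. The floor covers counting error only, since the cDNA was amplified and carried no molecular identifiers. An unnamed gene model, Gm42567, overlaps a Tet2 exon on the opposite strand. The library preparation is not stated to keep strand, so reads from the overlapping stretch cannot be assigned to either gene. Of the 31-base words in Tet2 transcripts, 0.71% occur in transcripts of other genes, read on either strand.

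**Figure D1:**
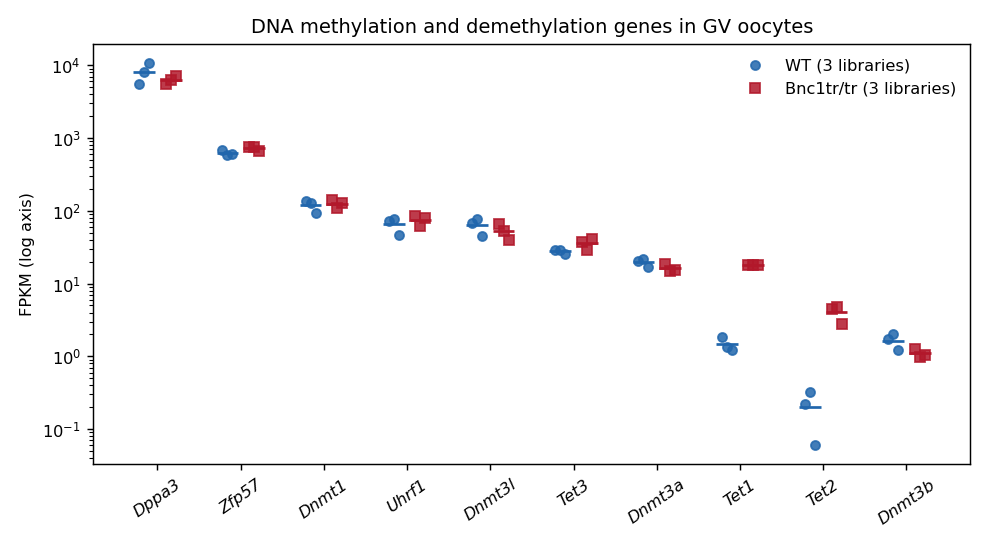
FPKM of the 10 genes in each library, on a log axis, with genes ordered by mean level, WT libraries as blue circles, Bnc1tr/tr libraries as red squares and short lines at the group means. Tet1 and Tet2 are the genes whose symbols separate by genotype, with Tet1 near 18.1 FPKM against 1.47 FPKM, while the ranges of the other 8 genes overlap between the groups.

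Tet3 (NCBI Gene 194388, chr6:83362373-83457208, minus strand) was the most abundant TET gene in all 6 libraries. It was listed at 37.4, 28.9 and 41.4 FPKM in Bnc1tr/tr and at 28.8, 28.9 and 25.9 FPKM in WT. The Bnc1tr/tr replicate 2 fell inside the WT range and the other Bnc1tr/tr libraries lay above it. With means of 35.9 ± 6.4 and 27.9 ± 1.71 FPKM, the log2 fold change was 0.34 (SE 0.18, 95% interval -0.07 to 0.75, limma adjusted p = 0.187), and Tet3 was not called. With upper-quartile scaling its estimate was 0.07.

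The makeup of TET transcripts differed between the genotypes. Summed over the family, TET transcripts came to 58.0 ± 5.36 FPKM in Bnc1tr/tr and 29.5 ± 2.05 FPKM in WT. Tet3 made up 62.1%, 55.6% and 66.8% of that sum in the Bnc1tr/tr libraries and 93.4%, 94.5% and 95.3% in the WT libraries. Tet1 accounted for 31.4% ± 3.35 against 4.96% ± 0.848, and Tet2 for 7.09% ± 2.38 against 0.660% ± 0.415. The Tet3 to Tet1 ratio within a library ran from 1.58 to 2.33 in Bnc1tr/tr and from 15.7 to 21.3 in WT. A common factor for a library cannot change such a ratio, whereas quantile normalization can. For Tet3 to Tet2 the ratios were 6.01 to 14.7 and 90.4 to 432. Both ratios were without overlap between the groups, with differences of -3.29 and -4.25 in mean log2 ratio, and they carry the Tet1 and Tet2 values already given. The Tet3 to Tet2 difference was -3.59 without WT replicate 3, the library with the lowest Tet2 value, and -4.72 without WT replicate 2.

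**Figure D2:**
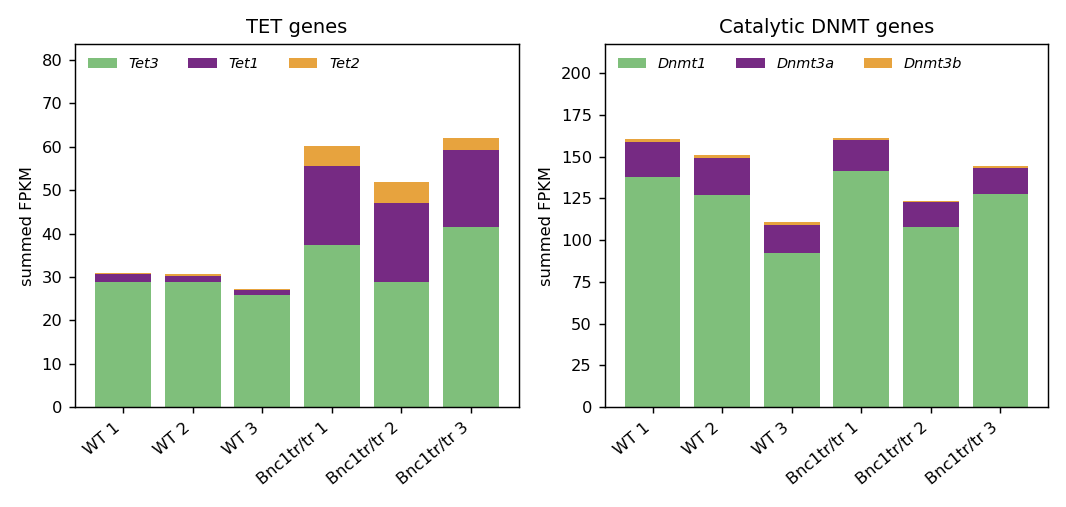
Stacked bars of summed FPKM per library for the TET genes (left) and for the catalytic DNA methyltransferase genes (right), with 3 WT and 3 Bnc1tr/tr libraries on each horizontal axis. The TET bars average 29.5 FPKM in WT and 58.0 FPKM in Bnc1tr/tr, with taller Tet1, Tet2 and, in mean, Tet3 segments, of which Tet3 was not called, while the methyltransferase bars of the groups overlap in height.

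Transcripts of the maintenance pair did not separate by genotype. Dnmt1 (NCBI Gene 13433, chr9:20907206-20959888, minus strand) encodes the maintenance methyltransferase, which oocytes make as a shortened form. Its level was 141, 108 and 128 FPKM in Bnc1tr/tr and 138, 127 and 92.4 FPKM in WT. The ranges overlapped and the WT spread was the wider, with a log2 fold change of 0.09 (SE 0.20, 95% interval -0.37 to 0.55, limma adjusted p = 0.778). The sign of that estimate turned under upper-quartile scaling (-0.19), under median-ratio scaling (-0.13) and without WT replicate 3 (-0.08). Gene-level values do not resolve the promoters of Dnmt1, and its 3 RefSeq windows held 33, 12 and 2 CpG dinucleotides.

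Uhrf1 (NCBI Gene 18140, chr17:56303337-56323486, plus strand) encodes the reader that recruits DNMT1. It had 86.0, 62.2 and 78.5 FPKM in Bnc1tr/tr and 72.9, 77.8 and 47.2 FPKM in WT. The lowest library was WT replicate 3 and the groups overlapped. Its estimate was 0.21 on the log2 scale (SE 0.23, 95% interval -0.31 to 0.73, limma adjusted p = 0.518), and it was -0.06 with upper-quartile scaling. Of the 31-base words in Uhrf1 transcripts, 24.25% also occur in transcripts of other genes, most of them in Gm5648, so its level is uncertain where the counting could split reads. The ratio of Uhrf1 to Dnmt1 was 0.576 to 0.614 in Bnc1tr/tr and 0.510 to 0.612 in WT, with overlap.

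The de novo genes had lower mean levels in Bnc1tr/tr, and none was called on the values as deposited. Dnmt3a (NCBI Gene 13435, chr12:3801559-3914443, plus strand), the catalytic enzyme of oocyte methylation, was at 18.4, 14.7 and 15.5 FPKM in Bnc1tr/tr and at 20.7, 22.1 and 17.0 FPKM in WT. Bnc1tr/tr replicate 1 was above WT replicate 3, and this pair alone made the ranges overlap. Dnmt3a had a log2 fold change of -0.29 (SE 0.18, 95% interval -0.68 to 0.11, limma adjusted p = 0.25). Scaling decided the call, since Dnmt3a was called lower after upper-quartile scaling (-0.55, limma adjusted p = 0.0284) and after quantile normalization (-0.51, limma adjusted p = 0.0336), while median-ratio scaling left it short of the fold threshold (-0.495, limma adjusted p = 0.0417). Dnmt3aos lies on the opposite strand of a Dnmt3a exon.

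Dnmt3b (NCBI Gene 13436, chr2:153649411-153687730, plus strand), the de novo enzyme of the early embryo, was the least abundant of the 10 genes in Bnc1tr/tr. It was at 1.26, 0.99 and 1.04 FPKM in Bnc1tr/tr and at 1.71, 2.02 and 1.21 FPKM in WT. The lowest WT library lay just under the highest Bnc1tr/tr library. Its fitted change was -0.33 (SE 0.18, 95% interval -0.73 to 0.07, limma adjusted p = 0.191), and quantile normalization made it a call (-0.76, limma adjusted p = 0.0071). Transcripts of Dnmt3c, a near copy used in male germ cells, share 13.48% of its 31-base words.

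Dnmt3l (NCBI Gene 54427, chr10:78042287-78063622, plus strand), the cofactor of DNMT3A, was at 65.5, 53.5 and 39.8 FPKM in Bnc1tr/tr and at 68.4, 76.0 and 44.6 FPKM in WT. Both groups spread widely and overlapped, with a log2 fold change of -0.24 (SE 0.26, 95% interval -0.82 to 0.34, limma adjusted p = 0.511). Single libraries moved that estimate, to -0.05 without Bnc1tr/tr replicate 3, -0.09 without WT replicate 2, -0.41 without Bnc1tr/tr replicate 1 and -0.47 without WT replicate 3. An exon of Aire lies on the opposite strand of Dnmt3l. Per library, Dnmt3l exceeded Dnmt3a 2.58 to 3.65 times in Bnc1tr/tr and 2.62 to 3.45 times in WT, so the cofactor was the more abundant transcript in all 6 libraries.

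Within the catalytic methyltransferases, the shares differed slightly and without overlap, although no gene was called. Dnmt1 made up 87.9% ± 0.622 of their summed FPKM in Bnc1tr/tr and 84.5% ± 1.30 in WT. Dnmt3a made up 11.3% ± 0.581 and 14.3% ± 1.25, and Dnmt3b 0.768% ± 0.0420 and 1.17% ± 0.149. The sums themselves were 143 ± 18.8 and 141 ± 26.5 FPKM and overlapped. The ratio of Dnmt3a to Dnmt3b was 14.6 to 14.9 in Bnc1tr/tr and 10.9 to 14.0 in WT, again without overlap. In this ratio Dnmt3b rests on about 71 to 140 fragments per library. Among single genes, 46.8% of those tested had groups without overlap. Shares and ratios were described and not tested, and shares of the same sum depend on each other.

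**Figure D3:**
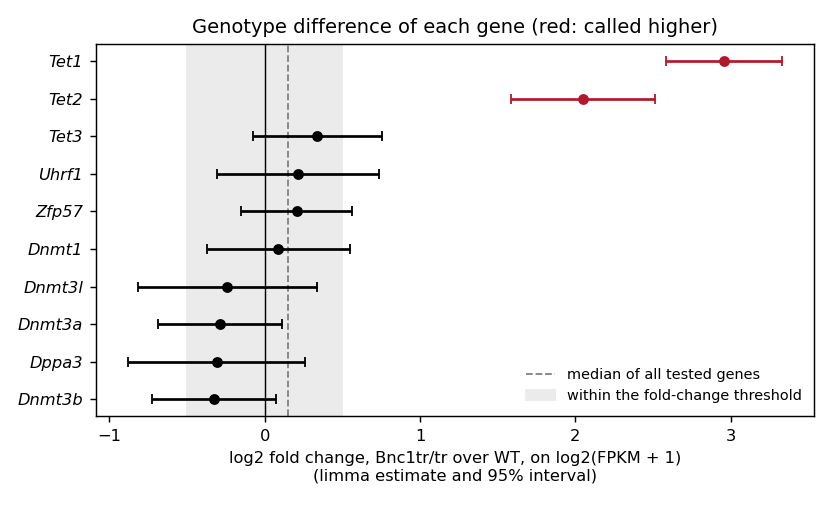
Log2 fold change of each of the 10 genes, Bnc1tr/tr over WT on log2(FPKM + 1), with points for the limma estimates, bars for 95% intervals, a grey band within the threshold of 0.5 and a dashed line at the median of all tested genes (0.15). Tet1 at 2.96 and Tet2 at 2.05 lie clear of the band, and the intervals of the other 8 genes include 0.

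The protectors were the most abundant of the 10 genes. Dppa3 (NCBI Gene 73708, chr6:122626424-122630271, plus strand) stood at 5481, 6302 and 7146 FPKM in Bnc1tr/tr and at 5462, 8032 and 10706 FPKM in WT. WT libraries ran from the lowest to the highest value of the 6, and the Bnc1tr/tr libraries lay between them. The estimate was -0.31 on the log2 scale (SE 0.25, 95% interval -0.88 to 0.26, limma adjusted p = 0.383), and without WT replicate 3 it was -0.08. Of its 31-base words, 29.62% occur in transcripts of other loci such as Dppa3-ps, which leaves the level uncertain.

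Zfp57 (NCBI Gene 22715, chr17:37001163-37010729, plus strand) stood at 744, 747 and 670 FPKM in Bnc1tr/tr and at 680, 591 and 604 FPKM in WT. Only Bnc1tr/tr replicate 3 and WT replicate 1 crossed. The log2 fold change was 0.21 (SE 0.16, 95% interval -0.15 to 0.56, limma adjusted p = 0.357), and it was -0.07 with upper-quartile scaling. Set against its partner Trim28, Zfp57 was 31.4 to 50.7 times as abundant in Bnc1tr/tr and 32.0 to 43.6 times in WT, a mean log2 ratio that differed by 0.01, and by 0.17 without Bnc1tr/tr replicate 1, -0.17 without Bnc1tr/tr replicate 2 and -0.14 without WT replicate 3. No 31-base word of Zfp57 was shared with another gene.

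In the order of levels, which FPKM allows because it is per length, the genotypes shared the top and differed at the place of Tet1 and Tet2. In WT the order was Dppa3, Zfp57, Dnmt1, Uhrf1, Dnmt3l, Tet3, Dnmt3a, Dnmt3b, Tet1 and Tet2. The neighbours Uhrf1 and Dnmt3l overlapped there, as did Dnmt3b and Tet1, and every other pair of neighbours was apart in all libraries. In Bnc1tr/tr the first 6 genes kept that order, followed by Tet1, Dnmt3a, Tet2 and Dnmt3b. There the ranges of Uhrf1 and Dnmt3l, of Dnmt3l and Tet3 and of Tet1 and Dnmt3a overlapped.

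**Figure D4:**
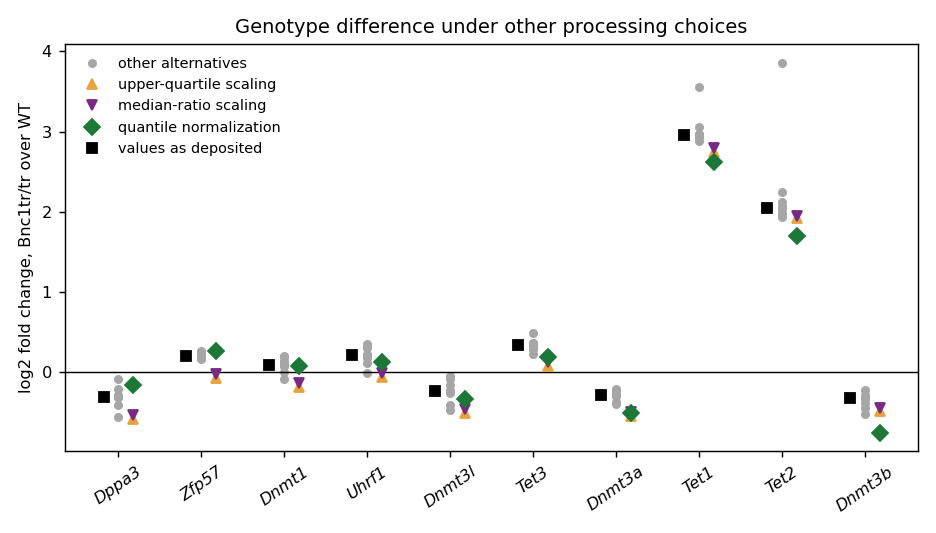
Log2 fold changes (vertical axis, Bnc1tr/tr over WT) of the 10 genes on the deposited values (black squares) and under the alternative settings, with coloured symbols for the 3 other scalings and grey circles for the rest. Tet1 stays between 2.62 and 3.55 and Tet2 between 1.70 and 3.86, Dnmt1, Uhrf1 and Zfp57 cross 0, and Dnmt3a reaches -0.55.

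Profiles across the 6 libraries were compared with those of the 5276 other genes averaging 10 FPKM or more, by the root-mean-square difference of centred log2(FPKM + 1) values. The 3 genes nearest to Tet1 were Crym (0.133), Galnt6 (0.177) and Triobp (0.185). Crym encodes a crystallin that binds thyroid hormone, and it measured 46.9 ± 8.18 FPKM in Bnc1tr/tr and 5.30 ± 0.871 FPKM in WT. Nearest to Dppa3 were Anln (0.0831), Xlr4b (0.0953) and Uqcr10 (0.101), none of them called, and each with its highest level in WT replicate 3, as Dppa3 had. These distances are descriptions over 6 libraries that share the same scaling.

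The wider pathway was read from a list of 90 further genes in 8 classes, 87 of them in the tables and 68 of them tested. Of the 68, 18 were called higher and 2 lower (29.4% called, against 31.8% of all tested genes), 48 were not called and 32 had groups without overlap, against 46.8% of all tested genes. Their median change was 0.23, against 0.15 for all tested genes. At an unadjusted p under 0.05, 21 of the 68 were higher and 7 lower, and in the classes with 0 called lower these were Nsd2, Atrx and Mat1a, named after their values were seen. With upper-quartile scaling the counts were 13 higher and 9 lower, and over all genes the share of calls that were higher moved from 75.8% to 50.8%, with a median log2 fold change of -0.09 in place of 0.15.

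Genes that supply or spend the methyl donor S-adenosylmethionine had 4 of 13 tested members called higher and 0 lower. The share called was 30.8%, against 31.8% of all tested genes. Gnmt, which spends the donor on glycine, measured 60.1, 74.9 and 41.0 FPKM in Bnc1tr/tr and 10.3, 12.2 and 7.36 FPKM in WT, with a log2 fold change of 2.43 (SE 0.26, limma adjusted p = 0.000164). Shmt2, the mitochondrial enzyme that passes the carbon of serine to folate, measured 56.2, 47.6 and 40.4 FPKM against 13.6, 11.1 and 6.00 FPKM (2.18, SE 0.28, limma adjusted p = 0.00043). Mat2a, the catalytic subunit of the enzyme that makes the donor, measured 72.6, 42.4 and 50.2 FPKM against 18.9, 13.9 and 8.79 FPKM (1.94, SE 0.29, limma adjusted p = 0.00117). All 3 genes separated the groups, and the regulatory subunit gene Mat2b, the most abundant of the class, did not, with 991 ± 103 and 1120 ± 110 FPKM. Mtr, the methionine synthase, was the other call, and it was not called without the filter on low values (limma adjusted p = 0.069).

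Genes listed in the class of base excision had 4 of 13 tested members called higher and 1 lower. The class label does not show removal of a base by each member, and 38.5% were called, against 31.8% of all tested genes. Gadd45a, a stress protein linked to active demethylation, was at 7.99 ± 1.69 FPKM in Bnc1tr/tr and 1.66 ± 0.471 FPKM in WT (log2 fold change 1.75, SE 0.21, limma adjusted p = 0.000296). Smug1, a glycosylase of uracil and hydroxymethyluracil, fell from 5.84 ± 0.552 to 1.37 ± 0.369 FPKM (-1.53, SE 0.18, limma adjusted p = 0.000253). The glycosylase gene Neil2 rose from 1.32 ± 0.378 to 4.52 ± 1.45 FPKM. Neil3, the most abundant of the class, rose from 226 ± 10.8 to 367 ± 15.8 FPKM (0.70, SE 0.15, limma adjusted p = 0.00819), a call lost with upper-quartile scaling (0.42, limma adjusted p = 0.0646) and with median-ratio scaling, where the change was 0.48. Gadd45b was the fourth, with a limma adjusted p of 0.0376 that became 0.0725 without the filter.

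Genes listed in the class of oxidation control had 3 of 7 tested members called higher and 1 lower. The class label does not show that role for each member, and 57.1% were called, against 31.8% of all tested genes. Idh1, which makes the alpha-ketoglutarate that TET enzymes consume, rose from 31.7 ± 4.11 to 66.4 ± 4.34 FPKM (log2 fold change 1.05, SE 0.17, limma adjusted p = 0.00169). Ogt, the sugar transferase that binds TET proteins, was at 18.1, 17.4 and 16.9 FPKM in Bnc1tr/tr and at 9.22, 7.47 and 8.17 FPKM in WT (0.99, SE 0.16, limma adjusted p = 0.00161). Samhd1, a hydrolase of DNA precursors, was called lower at 15.8 ± 0.889 against 25.1 ± 2.83 FPKM (-0.63, SE 0.16, limma adjusted p = 0.017). This call was lost without Bnc1tr/tr replicate 1, without Bnc1tr/tr replicate 2, without WT replicate 1 and without WT replicate 2, with limma adjusted p between 0.0509 and 0.058. Wdr76 was the third gene called higher, and Hmces, the most abundant of the class at 301 ± 32.2 and 391 ± 96.6 FPKM, was not called on the deposited values but was called lower with upper-quartile scaling (-0.63), with median-ratio scaling (-0.57) and without WT replicate 3 (-0.56).

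Genes listed in the class of methyl-CpG readers had 3 of 5 tested members called higher and 0 lower, the calls all at low levels. The class label does not show binding by each member, and 60.0% were called, against 31.8% of all tested genes. Zbtb33, which encodes the repressor Kaiso, was at 5.54 ± 0.688 and 2.52 ± 0.461 FPKM (log2 fold change 0.89, SE 0.18, limma adjusted p = 0.00488), and Mbd5 at 3.81 ± 0.142 and 1.61 ± 0.322 FPKM (0.89, SE 0.16, limma adjusted p = 0.00345). Mbd2, at 3.35 ± 0.715 and 1.80 ± 0.277 FPKM, was the least secure, with a limma adjusted p of 0.0281 that rose to between 0.0668 and 0.0951 without Bnc1tr/tr replicate 1, Bnc1tr/tr replicate 3, WT replicate 1 or WT replicate 2. The Mbd2 call was also lost with upper-quartile scaling (0.43, limma adjusted p = 0.103) and median-ratio scaling (0.47, limma adjusted p = 0.0788). Quantile normalization took away all 3 calls, with log2 fold changes of 0.49 for Zbtb33, 0.46 for Mbd5 and 0.19 for Mbd2. Mbd3, a subunit of the NuRD complex and the most abundant of the class, measured 9.84 ± 2.26 and 10.7 ± 0.423 FPKM and was not called.

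Genes of maintenance and its targeting had 1 of 11 tested members called higher and 0 lower (9.1% called, against 31.8% of all tested genes). That gene was Cdca7, which activates the remodeller HELLS, at 19.1, 14.3 and 14.9 FPKM in Bnc1tr/tr and 5.64, 2.55 and 2.54 FPKM in WT (log2 fold change 1.96, SE 0.26, limma adjusted p = 0.000636). Pcna, the replication clamp, was at 193 ± 13.7 and 212 ± 17.1 FPKM and was not called. Chromatin genes that guide de novo methylation had 1 of 8 tested members called higher and 0 lower. Of these, 12.5% were called, against 31.8% of all tested genes. The call was Kdm5b, a histone H3K4 demethylase, at 5.47 ± 1.16 and 1.07 ± 0.164 FPKM (1.63, SE 0.18, limma adjusted p = 0.000224). Kdm1b, the H3K4 demethylase that oocytes need for imprints, was at 32.0 ± 5.99 and 36.3 ± 7.10 FPKM and was not called.

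Imprint protection genes had 2 of 10 tested members called higher and 0 lower. The share called was smaller than the 31.8% of all tested genes. Arid4b was at 10.7 ± 1.98 and 4.39 ± 0.966 FPKM (log2 fold change 1.12, SE 0.20, limma adjusted p = 0.00314), and its relative Arid4a, which binds the retinoblastoma protein, at 48.5 ± 1.42 and 23.9 ± 1.55 FPKM (0.99, SE 0.15, limma adjusted p = 0.00135). Both remained called under 14 alternatives of scaling, filter, pseudocount, variance model, block and omitted library, which do not include the fold threshold of 1. Atrx, a chromatin remodeller and the most abundant of the class, was at 39.6 ± 6.11 and 61.2 ± 12.5 FPKM without overlap, with a log2 fold change of -0.60 and a limma adjusted p of 0.0528. Atrx was called lower under 6 of 14 alternatives, the 3 scalings and the omission of WT replicate 3 among them. Trdmt1, which methylates transfer RNA and was the only other methyltransferase tested, was at 13.9 ± 2.24 and 10.7 ± 0.317 FPKM and was not called.

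**Figure D5:**
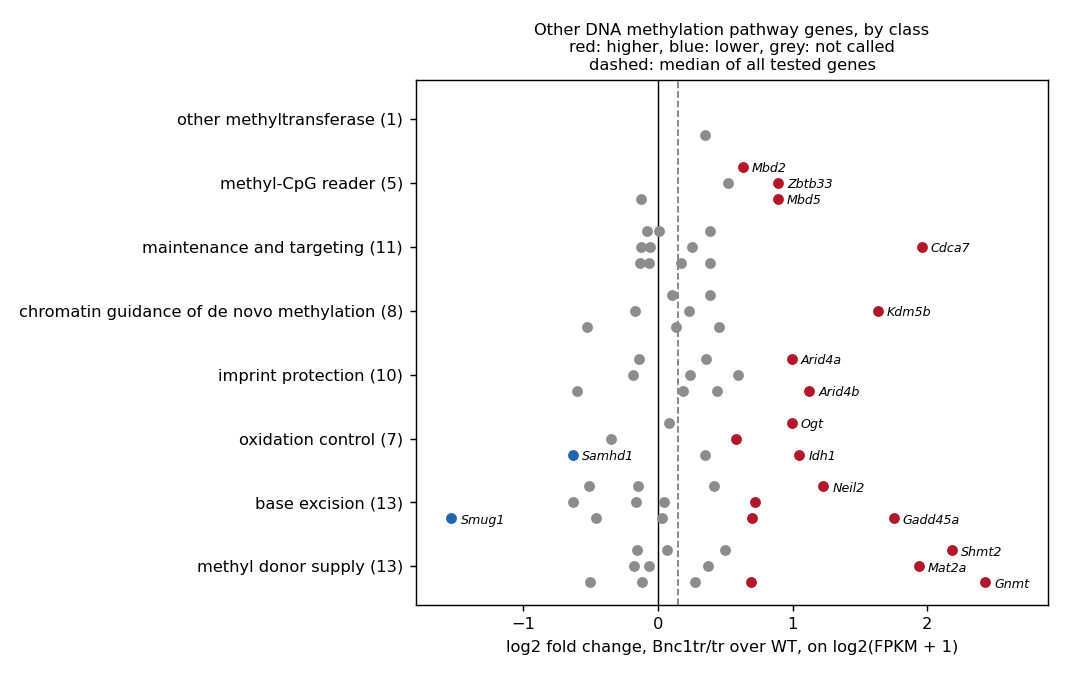
Log2 fold changes (horizontal axis, Bnc1tr/tr over WT on log2(FPKM + 1)) of the 68 tested pathway genes by class, each point a gene, red where called higher, blue where called lower and grey where not called, with the number tested in parentheses and a dashed line at the median of all tested genes. Red points reach from 0.58 for Wdr76 to 2.43 for Gnmt, and the blue points are Smug1 at -1.53 and Samhd1 at -0.63.

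Some of these transcripts lie on the opposite strand of another gene's exon, so reads from the overlapping stretch cannot be told apart from that gene's. Gadd45a overlaps E230016M11Rik, Mat2a overlaps Particl, Shmt2 overlaps Ndufa4l2 and Mbd5 overlaps Orc4. Zbtb33 overlaps Tmem255a, Arid4b overlaps Ggps1, Kdm1b overlaps Dek and Hmces overlaps Gm26636. The share of their 31-base words that occurs in other genes, on either strand, ran from 1.24% for Mbd5 to 19.47% for Mat2a.

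The libraries were checked against markers of the cells they could hold. All 12 oocyte markers were present, 2 of them called higher and 2 lower, with summed levels of 8599 to 9464 FPKM in Bnc1tr/tr and 6983 to 11290 FPKM in WT. Of 12 granulosa and cumulus markers, 10 were in the tables and 6 were tested. Of these 6, 3 were called higher (Fshr, Cyp11a1 and Kitl), against 24.1% of all tested genes. Fshr entered the test only through its Bnc1tr/tr level, with means of 5.25 and 0.35 FPKM. The sums were 49.2 to 65.5 and 23.4 to 39.5 FPKM and did not overlap, while Amhr2, Foxl2 and Has2 were under 0.25 FPKM in all libraries. Of 8 theca and stroma markers, 6 were in the tables and 1, Dcn, was tested and called higher, with sums of 6.38 to 10.3 and 1.73 to 2.27 FPKM and Col1a1 at 0.01 FPKM or less. All 4 endothelial markers gave 5.38 to 8.10 and 10.1 to 11.7 FPKM, with 1 of 2 tested called lower and Cdh5 at 0.02 FPKM or less. The 8 immune markers gave 61.1 to 124 and 66.2 to 97.3 FPKM, with Adgre1 and Csf1r under 0.25 FPKM. Of the 3 tested, 0 were called by limma and 1 (Lyz2, higher) had an unadjusted limma p under 0.05. Lyz2 was at 5.81, 48.0 and 0 FPKM in Bnc1tr/tr and at 0 in all WT libraries, so it entered the test only through its Bnc1tr/tr level. Below the filter, further markers separated upward in Bnc1tr/tr, and they were named after their values were seen. C1qa was at 0.61 to 1.66 FPKM and Cd3e at 0.24 to 0.67 FPKM, against 0 in all WT libraries. Lum was at 0.41 to 2.23 FPKM and Adgre1 at 0.09 to 0.13 FPKM, again against 0 in all WT libraries. Kdr was at 0.53 to 1.54 FPKM against 0.07 to 0.12 FPKM, and Pdgfra at 0.38 to 0.63 FPKM against 0.04 to 0.07 FPKM. Without the filter C1qa, Kdr and Pdgfra were called higher (limma adjusted p = 0.0131, 0.0488 and 0.0133). Cd3e, with a change of 0.48, Lum and Adgre1 were not called. The granulosa and stroma sums and these markers below the filter moved with genotype as Tet1, Tet2 and the genes called higher above did. The largest part of the granulosa sums was Cyp19a1, at 35.1 and 23.3 FPKM and not called. Other markers went the other way. Pecam1 was called lower (4.01 against 9.11 FPKM), and Inha, Tek and C1qb had lower means in Bnc1tr/tr without a call. The part of other cells in the results above was not tested.

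Bnc1 transcript was at 9.04, 6.51 and 5.83 FPKM in Bnc1tr/tr and at 13.2, 12.5 and 16.2 FPKM in WT, lower by a log2 fold change of -0.89 (SE 0.20, limma adjusted p = 0.00895) and without overlap, and a level cannot show a frameshift. Estimated depth was 13.1 to 17.2 M fragments in Bnc1tr/tr and 15.0 to 21.4 M in WT, with that of WT replicate 3 the least certain. Bnc1tr/tr libraries listed 15258 to 15736 genes above 0 and WT libraries 13896 to 14576. Across genes, log2(FPKM + 1) values correlated at 0.983 to 0.993 within groups and at 0.945 to 0.959 between them.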

How the data were processed

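The authors deposited a table of FPKM values (2 decimals) for each of 6 libraries. The submitters' processing notes name HISAT2 2.0.4, Bowtie2 2.2.5, RSEM 1.2.12 and GRCm38.p6, without roles; read counts and any gene filter are not given in the sources used here. Samples were grouped by the genotype label.

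Groups were compared with limma 3.58.1 (R 4.3.3) on log2(FPKM + 1), two-sided, for the 10560 genes averaging 1 FPKM or more, and p-values were adjusted by Benjamini-Hochberg over all of them. The thresholds were those the study names. Replicate numbers were not used as a block. The method was tested on simulated data. Fragment numbers were estimated from the regular spacing of low FPKM values in genes with 1 transcript and entered no test. Gene positions, shared words and overlaps came from GENCODE and promoters from RefSeq, where 9 of the 10 genes were matched.

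Text names the 10 genes, Bnc1, and in each pathway class the 3 called genes with the largest absolute change and the most abundant gene, plus the 3 genes nearest to Tet1 and to Dppa3. Genes, lists and rules were chosen with earlier results of these data known. Wdr76, Gadd45b, Mtr, Trim28 and the markers fall outside the naming rule. Alternatives were a pseudocount of 0.1, other filters, 3 scalings, trended robust variances, a replicate block, a fold threshold of 1 and leaving out each library. Figures were drawn with matplotlib 3.10.9.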

Additional observations from a re-analysis of the deposited data

How the results depend on the processing

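Tet1 and Tet2 were called higher under every alternative in which they were tested, with limma adjusted p from 1.55e-06 to 0.000158 and from 8.05e-05 to 0.00167. With a minimum mean of 5 FPKM only 1 of the 10 genes was called higher, because Tet2 and Dnmt3b were then not tested. The number called lower became 1 with upper-quartile scaling (Dnmt3a) and 2 with quantile normalization (Dnmt3a and Dnmt3b). Of 138 alternative values of the 10 genes, 126 kept direction and side of the threshold, 3 became calls and 9 turned sign, none of the 9 called. Those were Dnmt1 with upper-quartile scaling (-0.19), median-ratio scaling (-0.13), without Bnc1tr/tr replicate 1 (-0.0005) and without WT replicate 3 (-0.0832), with a range of -0.0832 to 0.20 over the omissions; Uhrf1 with the same scalings (-0.059 and -0.00498) and without WT replicate 3 (-0.0076, range to 0.35); and Zfp57 with the same scalings (-0.0708 and -0.0161). The cause was not tested.

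Pathway genes called higher numbered 11 with a minimum mean of 5 FPKM, where 48 were tested, and 9 with a fold threshold of 1. Those called lower numbered 9 with each of the 3 scalings and 1 with a fold threshold of 1. Leaving out a library gave 1 to 5 lower, with 5 without WT replicate 3 and 1 without Bnc1tr/tr replicate 1 or 2 or WT replicate 1 or 2, and 14 to 17 higher. Over all genes, 811 were called lower, against 418 without WT replicate 2, 526 without Bnc1tr/tr replicate 1 and 534 without Bnc1tr/tr replicate 3. The number was 586 without Bnc1tr/tr replicate 2 and 600 without WT replicate 1, and it rose to 1041 without WT replicate 3. Of 329 alternative values of named pathway genes, 305 kept direction and side, 9 became calls and 15 lost theirs.

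Same-numbered libraries deviated together with correlations of 0.278, -0.034 and 0.124, so the numbers were not shown to pair the samples. With the replicate block, 2 of the 10 genes were called higher and 0 lower, and 18 pathway genes higher and 5 lower, against 2 lower without it.

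Each group had 3 libraries, and the intervals of the genes not called reach from -0.88 to 0.75, so changes of either sign were not excluded. Dnmt3b and WT Tet2 rest on about 140 fragments or fewer per library.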

Other observations

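Of the 87 pathway genes in the tables, 19 had a mean under 1 FPKM and were not tested, and the genes named here were chosen after their values were seen. Tdg, the glycosylase that removes formylcytosine and carboxylcytosine, was at 0.13, 0.15 and 0.14 FPKM in Bnc1tr/tr and at 0.25, 0.26 and 0.06 FPKM in WT, and other transcripts hold 47.97% of its 31-base words. Neil1, a glycosylase of oxidised bases, was at 1.64, 2.33 and 0.85 FPKM in Bnc1tr/tr and at 0.08, 0.21 and 0 FPKM in WT. Zbtb38, a zinc finger reader of methylated CpG, was at 1.39, 1.30 and 1.32 FPKM against 0.24, 0.09 and 0.15 FPKM. Tested among all listed genes without the filter, Neil1 and Zbtb38 were called higher (limma adjusted p = 0.0161 and 0.00108). Gadd45g ranged from 0.07 to 3.31 FPKM in Bnc1tr/tr, with the lowest value in replicate 3, and from 0 to 0.07 FPKM in WT, and was not called (limma adjusted p = 0.155).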
